A study of Rattus norvegicus with 6 samples.

Results

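Surfactant and alveolar epithelial genes encode the proteins of the gas-exchanging surface of the lung, and their mRNAs were examined in rat PAIII prostate tumors. The set was Sftpa1, Sftpb, Sftpc, Sftpd, Napsa, Lamp3, Abca3, Slc34a2, Nkx2-1 and Ager. Of these 10 symbols, 9 were found among the 17557 rows of the expression table, each on a single row, and Abca3 was not analysed here. The symbols were listed with their levels in these tumors already known, so those levels are given as a description and support no test. PAIII is a transplantable line from a spontaneous, hormone-resistant prostate tumor of the Lobund-Wistar rat. Cells were injected subcutaneously in the flank of immune-competent Lobund-Wistar rats 2 months old. Rats A1, A6 and A12 (digitoxin replicates 1, 2 and 3) received the cardiac glycoside digitoxin at 0.03 mg/kg daily from day 10, rats B5, B9 and B14 (vehicle replicates 1, 2 and 3) received vehicle, and tumors were taken on day 40. Digitoxin-treated rats came from the low extreme and vehicle rats from the high extreme of serum IL-6 and CINC-1, so the groups also differ by that selection. RNA came from 10 punches of 1 mm diameter in 300 micron sections of what the labels call the primary tumor, with 1 library per rat. Given the lung mRNA described below, whether A1, A6, B5 and B9 hold flank tumor alone is in doubt, and the values do not settle which tissue was sampled. Values are FPKM, fragments per kilobase scaled by the mapped fragments of the library, which can be compared between genes because they are per length.

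Pulmonary surfactant is a film of phospholipid and protein that lowers surface tension in the alveoli. Alveolar type 2 cells make it, store it in lamellar bodies and secrete it. Alveolar type 1 cells are the thin cells through which gas exchange takes place. SP-B and SP-C, from Sftpb and Sftpc, are small hydrophobic proteins of the film, while SP-A and SP-D, from Sftpa1 and Sftpd, are collectins that bind microbes. Nkx2-1 is a homeodomain factor that drives surfactant genes in lung epithelium and is also made in thyroid, and it is not a gene of normal prostate epithelium.

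Of the 9 genes, 6 had a promoter window in the RefSeq tables of build GRCr8, and 2 stretches are shown because they belong to the most abundant surfactant genes with a window. The letters CTCAAG, a core bound by NKX2-1, the letters GCAAACA, bound by FOXA factors, and TATAA, the TATA box, were searched on both strands over the 250 bases before a start site. Capitals mark the matches, and positions count back from the start site on which the window was built, 105917588 for Sftpb and 17042264 for Sftpa1.
Sftpb, chr4:105917448-105917512, plus strand: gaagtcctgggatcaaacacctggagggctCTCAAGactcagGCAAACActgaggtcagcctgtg
Sftpa1, chr16:17042144-17042263, plus strand: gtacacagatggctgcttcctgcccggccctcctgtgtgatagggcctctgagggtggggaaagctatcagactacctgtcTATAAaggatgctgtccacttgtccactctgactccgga
In Sftpb the CTCAAG match began at position -110 and the GCAAACA match at position -98, and a second CTCAAG match, at position -25, lies outside the printed stretch. The RefSeq gene record of Sftpb begins further upstream, at 105917495, which falls inside the GCAAACA match, so these positions hold for the window's start site alone. In Sftpa1 the TATAA match began at position -39. CTCAAG was found in 2 of the 6 windows, those of Sftpb and Nkx2-1, and in 13.3% of all 33469 windows. GCAAACA was found in 1 of the 6 and in 4.16% of all windows, and TATAA in 2 of the 6 and in 24.0% of all windows. These matches are descriptions of sequence and are not binding data.

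The tumors fell apart in these genes, and not along the treatment. A12 and B14, 1 library from each group, were the 2 lowest of the 6 for all 9 genes. Among the 10749 rows tested, those whose mean reached 1 FPKM, 29.3% had A12 and B14 below each of A1, A6, B5 and B9. The 9 mRNAs summed to 50413 FPKM in A1, 82840 in A6, 27162 in B5 and 35501 in B9. In A12 they summed to 17.5 FPKM and in B14 to 25.2 FPKM. As a share of all FPKM in the library this was 6.19% in A1, 8.08% in A6, 3.24% in B5 and 4.95% in B9, against 0.00256% in A12 and 0.00387% in B14. Because each library is bulk tissue, fewer cells of a type and less RNA per cell cannot be told apart. The depth behind each FPKM is unknown, so no detection limit can be set and an entry of 0 is given as listed at 0.

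The labelled tissue was checked against prostate genes. Krt8 and Krt18, keratins of luminal and other simple epithelia, were present in all 6 libraries, with Krt8 from 397.5 FPKM in A6 to 2095 FPKM in A12 and Krt18 from 106 FPKM in A6 to 241 FPKM in A12. Of the genes that define prostate, Pbsn and Msmb were listed at 0 in every library, Hoxb13 was at most 0.0937 FPKM and Folh1 at most 0.0285 FPKM. Tmprss2, a protease of prostate and other epithelia including lung, was present at 7.69 to 34.1 FPKM. Spdef, an epithelial factor, was at 2.80 to 10.3 FPKM in A1, A6, B5 and B9, at 0.0893 in A12 and listed at 0 in B14. Thyroglobulin (Tg), a defining gene of the other tissue that makes Nkx2-1, was at most 0.131 FPKM.

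Sftpc was the most abundant of the surfactant mRNAs. Its gene spans chromosome 15 from 55935054 to 55937997, in the positions deposited with the values. With digitoxin it was at 35405 FPKM in A1, 63514 in A6 and 0.229 in A12, and with vehicle at 19188 in B5 and 24105 in B9 and listed at 0 in B14. A12 and B14 lay far below the rest, and the treatment groups overlapped. Among the rows of each library it ranked 3 in A1, 2 in A6, 4 in B5 and 2 in B9.

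Sftpa1 (chromosome 16, 18585630 to 18589016) was at 7068 FPKM in A1, 6689 in A6, 4588 in B5 and 5674 in B9, and was listed at 0 in A12 and B14. It was the most even of the 9 genes over A1, A6, B5 and B9, with the highest value 1.54 times the lowest. Its neighbour Sftpd, which lies 32423 bases away at 18621440 to 18633581, was at 1173 FPKM in A1, 1802 in A6, 702 in B5 and 673 in B9. Sftpd was listed at 0 in A12 and stood at 0.0763 FPKM in B14.

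Sftpb (chromosome 4, 164937656 to 164946699) was at 3417 FPKM in A1, 4957 in A6, 1033 in B5 and 2259 in B9, and was listed at 0 in A12 and B14. It was the least even of the 9 over A1, A6, B5 and B9, where the highest value was 4.80 times the lowest. B5 was the lowest of these 4 libraries for Sftpb, Sftpc and Sftpa1, and B9 the lowest for Sftpd.

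Genes of processing and storage followed. Napsa (chromosome 1, 101642883 to 101655189), whose aspartic protease takes part in cutting the SP-B precursor, was at 468 FPKM in A1, 674 in A6, 269 in B5 and 368 in B9. Unlike the other 8, it stayed well above 1 FPKM in the remaining libraries, with 16.4 FPKM in A12 and 24.2 FPKM in B14. The lowest of A1, A6, B5 and B9 was 11.1 times the higher of A12 and B14.

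Lamp3 encodes a membrane glycoprotein of lamellar bodies, which dendritic cells also make on maturation (chromosome 11, 88030959 to 88058600). It was at 247 FPKM in A1, 149 in A6, 209 in B5 and 327 in B9, and was listed at 0 in A12 and B14. Its order among the 4 libraries differed from that of the surfactant proteins, since A6 was the lowest and B9 the highest.

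Slc34a2, the sodium-phosphate cotransporter of the type 2 cell, also had its highest value in B9. The gene is found on chromosome 14, at 60376433 to 60395739. Its level was 403 FPKM in A1, 268 in A6, 147 in B5 and 448 in B9, with 0.0396 FPKM in A12 and an entry of 0 in B14.

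Nkx2-1 (chromosome 6, 86945223 to 86948414) was at 139 FPKM in A1, 213 in A6, 62.9 in B5 and 117 in B9, and was listed at 0 in A12 and B14. It was the least abundant of the 9 genes by mean.

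Ager, the receptor for advanced glycation end products, is the only type 1 cell gene of the 9 (chromosome 20, 6442507 to 6445435). It was at 2092 FPKM in A1, 4574 in A6, 965 in B5 and 1529 in B9, against 0.840 FPKM in A12 and 0.975 FPKM in B14. The lowest of the first 4 was 990 times the higher of the last pair. The positions given for Ager lie within those of 2 other rows, C4a and Stk19, which did not exceed 14.4 FPKM in any library, and overlapping loci leave some reads uncertain.

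**Figure D1:**
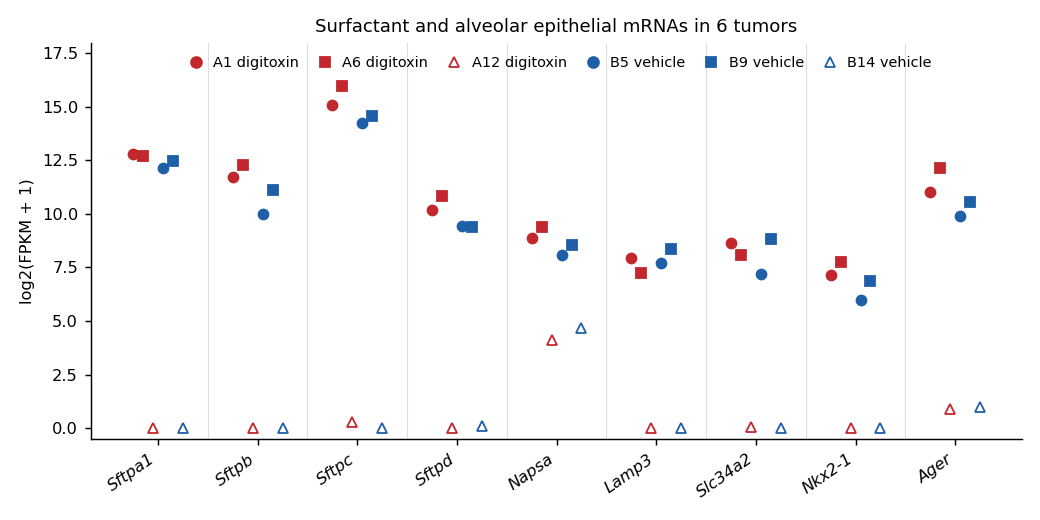
Levels of the 9 mRNAs as log2(FPKM + 1), 1 point per tumor, with digitoxin in red, vehicle in blue and open triangles for A12 and B14. A12 and B14 sit at or near 0 for every gene but Napsa, while the other 4 tumors, 2 of each group, lie far above them.

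The proportions of the 9 mRNAs within a library were not used to list them. Sftpc made up 70.2% of their summed FPKM in A1, 76.7% in A6, 70.6% in B5 and 67.9% in B9. Sftpa1 made up 14.02%, 8.08%, 16.9% and 16.0%, and Sftpb 6.78%, 5.98%, 3.80% and 6.36%, in the same order. The type 1 gene Ager made up 4.15%, 5.52%, 3.55% and 4.31%. In the libraries with low sums Napsa was nearly all of what remained, with 93.7% in A12 and 95.8% in B14, and Ager was 4.78% and 3.86%. These last shares rest on sums of 17.5 FPKM in A12 and 25.2 FPKM in B14, whose precision is unknown.

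**Figure D2:**
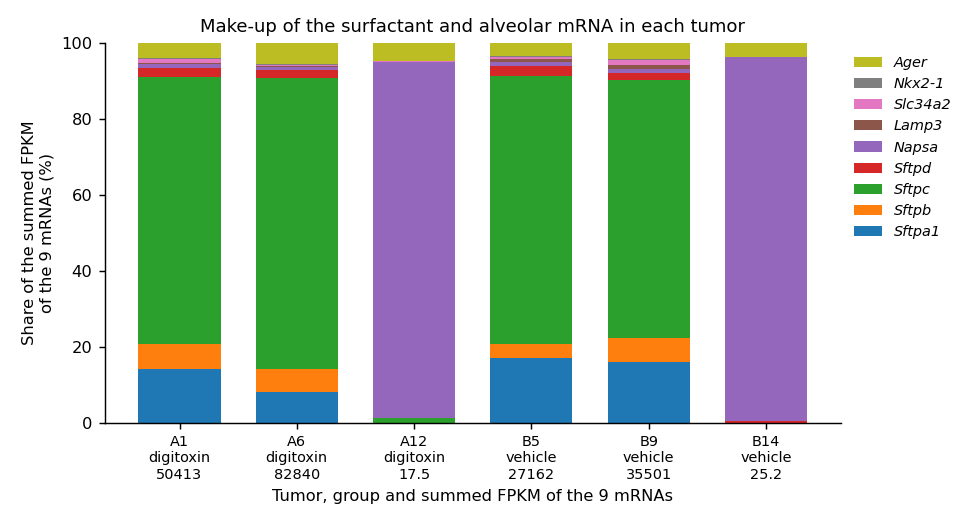
Share of each of the 9 mRNAs in their summed FPKM, 1 bar per tumor, with the sum printed under each bar. Sftpc fills 67.9% to 76.7% of the bar in A1, A6, B5 and B9, and Napsa over 93% in A12 and B14, where the sums are 17.5 and 25.2 FPKM.

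Each mRNA was then set against Sftpc of the same library, which removes any scaling of the library as a whole. Over A1, A6, B5 and B9 the ratio of Sftpd to Sftpc was the steadiest, at 3.31%, 2.84%, 3.66% and 2.79%, so that its highest value was 1.31 times its lowest. Ager stood at 5.91%, 7.20%, 5.03% and 6.34% of Sftpc in the same order, a spread of 1.43 times, although type 1 and type 2 cells are different cells. Napsa and Nkx2-1 varied by 1.44 and 1.48 times. Sftpb varied by 1.79 times, with its lowest ratio in B5 (5.38%), and Sftpa1 by 2.27 times, with its lowest in A6 (10.5%). Lamp3 and Slc34a2 varied most, by 5.77 and 4.42 times. Lamp3 was at 0.699% of Sftpc in A1, 0.235% in A6, 1.09% in B5 and 1.36% in B9. Slc34a2 was at 1.14%, 0.421%, 0.767% and 1.86%, so A6 was lowest and B9 highest for both. With 1 library per rat there is no technical replicate against which to set these spreads.

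**Figure D3:**
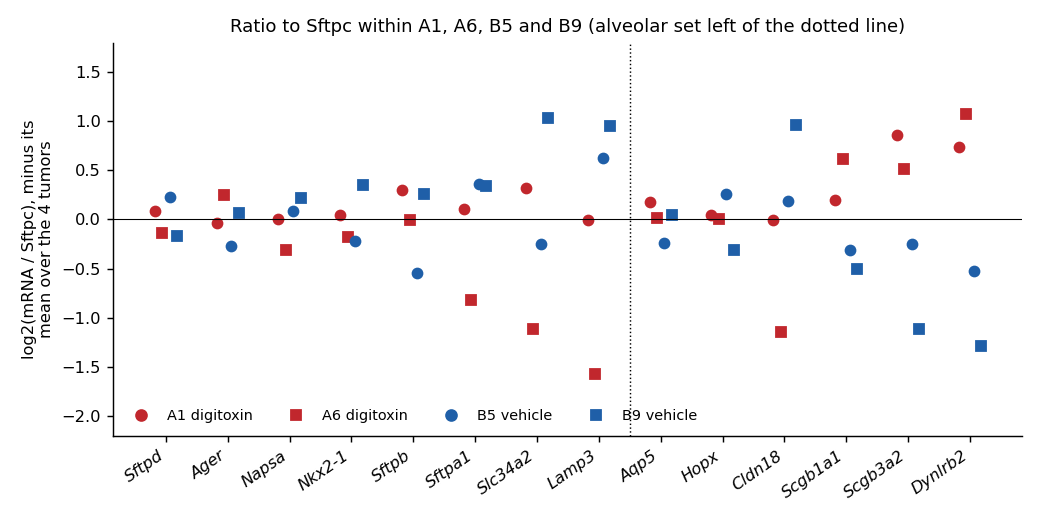
Log2 ratio of each mRNA to Sftpc within the tumor, minus its mean over A1, A6, B5 and B9, with the measured genes of the set left of the dotted line and comparison genes to its right. Sftpd, Ager, Napsa and Nkx2-1 stay close to the zero line, and A6 lies lowest for Sftpa1, Slc34a2, Lamp3 and Cldn18.

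The labelled question of the study is whether digitoxin changes mRNA levels in the tumor. For each of the 9 genes the digitoxin and vehicle groups overlapped, since each group holds 1 library far below its others, and the groups did not overlap for 4.16% of all rows. The mean of Sftpc was 32973 ± 31827 FPKM in treated tumors and 14431 ± 12737 FPKM in vehicle tumors (SD, n = 3 each). On log2(FPKM + 1), where low levels give understated changes, the digitoxin minus vehicle difference of Sftpc was 0.86 with a standard error of 5.59. Standard errors of differences are limma's moderated ones, drawn toward a trend over all rows, and not the scatter of the gene alone. Ager averaged 2222 ± 2289 FPKM in treated and 831 ± 773 FPKM in vehicle tumors (SD, n = 3 each), a difference of 0.86 with a standard error of 3.79. The differences of the 9 ran from -0.29 for Lamp3 to 0.95 for Sftpb, each smaller than its standard error, which ran from 1.67 to 5.59. Of the 9, 8 had a value above 0, against 35.1% of all rows, and their median was 0.66 against -0.16 over all rows. In limma's test with Benjamini-Hochberg adjustment 0 of the 9 and 0% of all rows had an adjusted p under 0.05. At an unadjusted p under 0.05 there were 0 of the 9 and 0.335% of all rows, which is 36 rows. The adjusted p of the 9 ran from 0.966 to 0.994. No sign held when single libraries were left out. Without A12, B5 or B9 all 9 differences were above 0, and for Sftpc they were 5.94, 3.18 and 3.34. Without B14, A1 or A6 all 9 were below 0, and for Sftpc they were -3.94, -1.47 and -1.89.

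The same contrast was computed without A12 and B14, a choice made after the levels were seen, which leaves 2 libraries in each group. Because the levels of these same genes set A12 and B14 apart, the errors and p-values without them are a description and support no test. Of the 9 mRNAs, 7 were higher in both A1 and A6 than in both B5 and B9, a pattern that 17.2% of all rows had, and Lamp3 and Slc34a2 were not. The differences (± moderated standard error) were 1.43 ± 0.54 for Sftpb, 1.35 ± 0.52 for Ager, 1.14 ± 1.18 for Sftpc and 1.08 ± 0.35 for Sftpd. They were 0.99 ± 0.38 for Nkx2-1, 0.83 ± 0.32 for Napsa, 0.43 ± 0.56 for Sftpa1 and 0.35 ± 0.54 for Slc34a2, and Lamp3 was at -0.44 ± 0.36. The count above 0 was again 8 of the 9, against 35.4% of all rows. Their adjusted p of limma over all rows ran from 0.392 to 0.730, so none passed. Limma's unadjusted p was under 0.05 for 5 of the 9 and for 1183 of the 10749 rows, again as a description. Over all rows 2 (0.0186%) passed the adjusted threshold. These were Mir3561 and Mir3567, named after their values were seen.

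With the replicate number as a block, which puts A12 and B14 in the same block, the 9 differences kept their values. Their standard errors fell to between 0.25 and 0.42. The adjusted p from limma then ran from 0.638 to 0.820. The unadjusted p was under 0.05 for 3 of the 9 (Sftpb, Sftpc and Ager) and for 4.15% of all rows. Because the block joins A12 and B14, it takes up their gap in these same genes. These errors and p-values are therefore a description and support no test. Over the 14 alternatives run, the adjusted p of the 9 genes ran from 0.301 to 1.00.

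**Figure D4:**
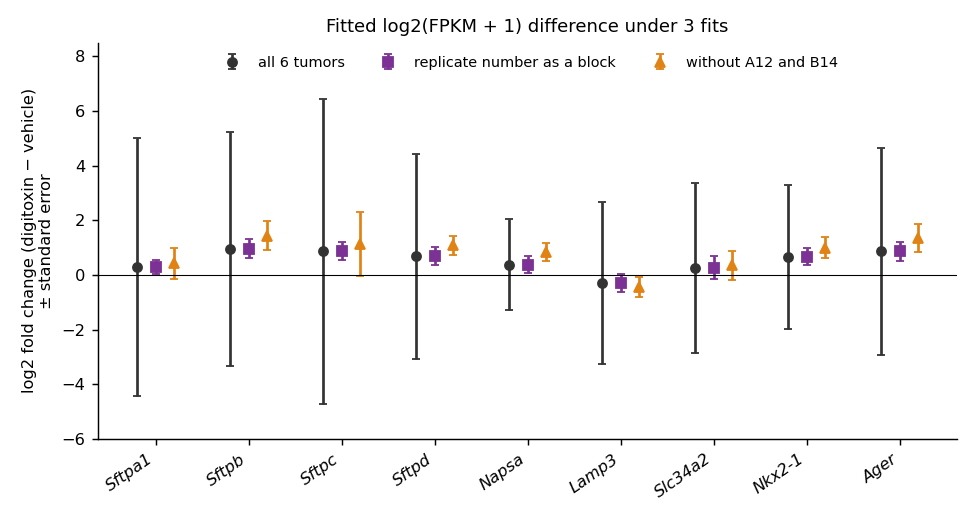
Fitted digitoxin minus vehicle difference on log2(FPKM + 1) with its moderated standard error, for all 6 tumors, with the replicate number as a block and without A12 and B14. With all 6 tumors the error bars of every gene cross 0, from 1.67 for Napsa to 5.59 for Sftpc.

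Other genes of alveolar epithelium were taken from lists and not picked by how they moved, though the lists were written with earlier results known. Of 14 other type 2 genes 12 were tested, and 11 of the 12 had A12 and B14 as the 2 lowest libraries. Of 15 other type 1 genes all were tested, and 14 had A12 and B14 lowest. The share over all rows was 29.3%. None of either list was called in either direction, and 0% of all rows were. The digitoxin minus vehicle difference was above 0 for 9 of the 12 type 2 genes (median 0.21) and for 12 of the 15 type 1 genes (median 0.33), against 35.1% of all rows (median -0.16). Ctsh, Lpcat1 and Cldn18 are each on more than 1 of the lists used here, as are Hopx, Foxa2, Cebpa and Etv5.

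Genes of both cells differed in how much remained in A12 and B14. Cldn18, a tight junction claudin of alveolar epithelium, was at 264 FPKM in A1, 215 in A6, 164 in B5 and 352 in B9, but 0.0949 in A12 and 0.0639 in B14. Muc1, a membrane mucin of many epithelia, was at 181, 222, 69.1 and 127 FPKM in A1, A6, B5 and B9, with 0.802 in A12 and 0.517 in B14. Aqp5, the water channel of type 1 cells, was at 569, 908, 230.04 and 354 FPKM in the first 4 and at 0.113 and 0.0737 FPKM in A12 and B14. Like the surfactant proteins, these 3 were under 1 FPKM in A12 and B14. Hopx, a homeodomain-only protein of type 1 cells, was at 1247, 2172, 783 and 660.3 FPKM, and remained at 23.3 FPKM in A12 and 37.4 FPKM in B14. Cav1 and Gprc5a, which many other cells also make, were far from 0 everywhere, with Cav1 at 220 FPKM in A12 and 221 in B14 and Gprc5a at 159.9 and 144 FPKM.

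Genes that serve surfactant lipid and secretion were divided. Of 11 genes of surfactant lipid and secretion, all tested and none called, 6 had A12 and B14 as the lowest libraries, against 29.3% of all rows, and the median difference was 0.0022. The treatment groups did not overlap for 1 of the 11, against 4.16% of all rows. This was Pcyt1a, which was named after its values were seen and makes an enzyme of phosphatidylcholine synthesis. It was at 7.17, 4.18 and 7.47 FPKM in A1, A6 and A12 and at 7.89, 9.64 and 11.1 FPKM in B5, B9 and B14. Lpcat1, which makes dipalmitoyl phosphatidylcholine, was at 141 FPKM in A1, 184 in A6, 71.6 in B5 and 137 in B9, with 24.6 in A12 and 23.5 in B14. Ctsh, a cathepsin that cuts surfactant precursors, was at 1022, 1396, 859 and 926 FPKM in the first 4 and at 209 and 239.7 FPKM in A12 and B14. Scd, a fatty acid desaturase of many cells, had its lowest value in A6 (109 FPKM) and stood at 298 FPKM in A12 and 337 FPKM in B14. Stard10, a phospholipid transfer protein, ranged from 72.5 FPKM in B14 to 204 FPKM in A6.

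Factors of lung lineage were mixed as well. Of 16 listed, 12 were tested, none was called, and the median difference was 0.0062. A12 and B14 were the lowest libraries for 8 of the 12, against 29.3% of all rows, and 0% of all rows were called. Foxa2, a forkhead factor that works with Nkx2-1 in lung, was at 39.7 FPKM in A1, 53.1 in A6, 23.9 in B5 and 26.04 in B9, with 7.40 in A12 and 5.07 in B14. Elf3 and Klf5, which are factors of many epithelia, went the other way, with Elf3 at 231 FPKM in A12 and 178 in B14 against 46.5 to 139.9 FPKM in the other 4. Klf5 was at 71.8 FPKM in A12 and 74.7 in B14 against 24.4 to 56.3 FPKM.

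Airway markers were low in A12 and B14 together with the alveolar genes, and markers of endothelium and macrophages were so in part. Over all rows, 29.3% had A12 and B14 lowest. Of 10 airway secretory genes 7 were tested, and 6 had A12 and B14 lowest, and their summed level was 20999 to 130834 FPKM in A1, A6, B5 and B9 against 2.52 FPKM in A12 and 1.51 in B14. Their median difference was 1.43. At 0 in both A12 and B14 were Scgb3a1, Scgb3a2, Cyp2f4, Bpifb1 and Bpifa1, the last of which was also at 0 in A6 and B5. Of 10 ciliated cell genes 7 were tested and all 7 had A12 and B14 lowest, with a summed level of 228 to 1300 FPKM against 16.5 and 13.0 FPKM and a median difference of 1.25. Of 9 endothelial genes tested 4 did so, with 384 to 1459 FPKM against 107 and 187 FPKM and a median difference of -0.01. Of 10 macrophage genes 7 did so, with a median difference of -0.13, and the summed level was 2489 to 3685 FPKM against 2278 in A12 and 1963 in B14. Most of the sum in A12 and B14 was Fabp4, a fatty acid binding protein also made by fat cells, at 2036 and 1554 FPKM. Without it the other 9 genes summed to 1559 to 2298 FPKM against 242 and 409 FPKM. None of these genes was called, and 0% of all rows were. The treatment groups did not overlap for 1 of these genes, Msr1, a scavenger receptor, named after its values were seen, against 4.16% of all rows. The part of these cells in the alveolar values was not tested.

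Genes of other organs were mostly low. Of the 13 prostate genes, 7 were under 1 FPKM in all 6 libraries, and the summed level ran from 550.4 FPKM in A6 to 2373 FPKM in A12, of which Krt8 was the largest part. Of the 5 prostate genes tested 2 had A12 and B14 lowest, against 29.3% of all rows, and the median difference was -0.14. All 5 kidney genes and all 4 stomach genes measured were under 1 FPKM in every library. The highest value of any thyroid gene was 21.5 FPKM (Slc26a4 in B9), of any liver gene 13.1 FPKM (Cyp2e1 in A6), of any skeletal muscle gene 7.49 FPKM (Tnnt3 in A6) and of any skin keratinocyte gene 10.9 FPKM (Sbsn in B5). The median differences were 0.10 over 3 thyroid, 0.18 over 2 liver and -0.41 over 2 muscle genes, and 0.58 for the 1 skin gene tested. A12 and B14 were lowest for 2 of the thyroid genes, 1 of the liver genes and 1 of the muscle genes, lists too short to set against the 29.3% of all rows. No gene of these lists was called, and 0% of all rows were.

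**Figure D5:**
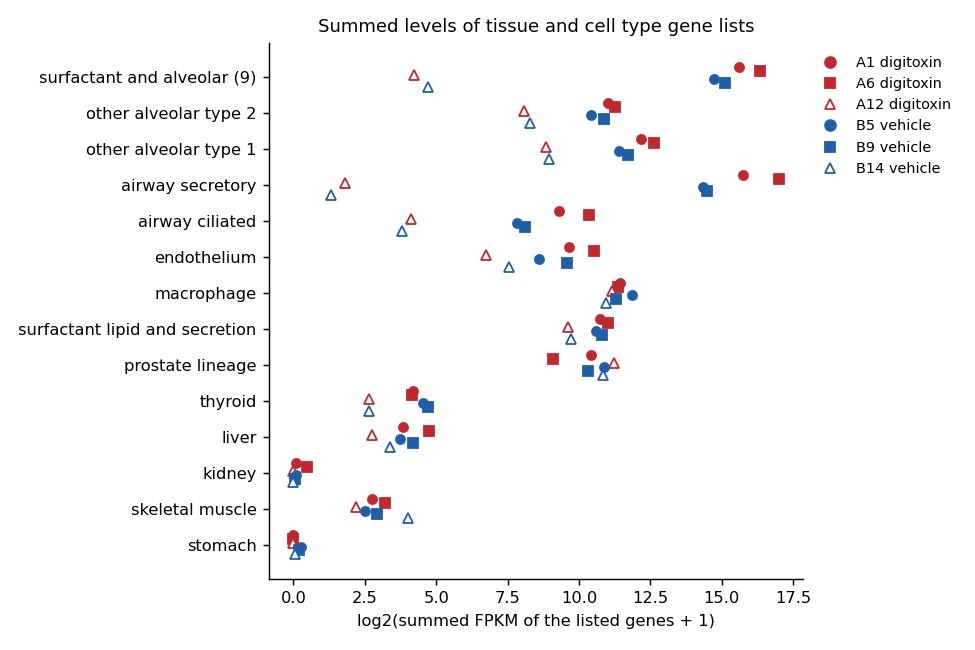
Summed FPKM of each gene list as log2(sum + 1), 1 point per tumor, with open triangles for A12 and B14. The alveolar and airway lists put A12 and B14 far below the other 4 tumors, the macrophage sum, mostly Fabp4 in A12 and B14, puts them just below, and in the prostate sum, mostly Krt8, they are not the lowest.

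The rows most like the set were found from log2(FPKM + 1) centred on its mean over the 6 libraries, by the root mean square difference from the mean profile of the 9 genes. The 10 closest were Retnla, Sec14l3, Ly6i, Aqp5, Sfta2, S100g, Akr1cl, Cxcl17, Pla2g1b and Sult1a1, with differences of 0.29 to 0.78 on the log2 scale. Among the 9 genes themselves the difference ran from 0.31 for Sftpd and 0.39 for Ager to 2.46 for Napsa and 2.50 for Sftpc. Retnla, a resistin-like secreted protein, was at 646 FPKM in A1, 936 in A6, 552 in B5 and 485 in B9, and was listed at 0 in A12 and B14. Sec14l3, a lipid-binding protein, was at 827, 1682, 436 and 465 FPKM, and Sfta2, a surfactant-associated secreted protein, at 491, 776, 315 and 260.3 FPKM, and each was listed at 0 in A12 and B14. S100g, a calcium-binding protein whose positions lie within those of Ctps2 (14.4 to 34.0 FPKM), was highest of the 10 in A6, with 2755 FPKM, against 868 in A1, 788 in B5 and 867 in B9. The points share libraries, and with 6 libraries of which 2 are near 0 the likeness mostly records that gap.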

How the data were processed

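Messenger RNA from 1 tumor of each of 6 rats was compared, 3 digitoxin-treated and 3 vehicle. The authors deposited a table of FPKM with 1 column per tumor, made from single reads of TruSeq libraries with Bowtie 2, TopHat 2 and Cufflinks 2. The submitters' processing notes list hg19, a human build, while the loci of the table are those of a rat genome whose build is not given in the sources used here, so positions are printed as deposited. Symbols on several rows (467 of 17030) were taken at whichever row had the higher mean. Reads were not analysed here and depth is unknown. Ratios of low values to B9 were most often 1.99 in A12 and 1.36 in B14, but only 2.77% and 3.19% of rows lay there, which fixes no depth.

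The 2 groups were tested on log2(FPKM + 1) for the 10749 rows whose mean reached 1 FPKM. The tool was limma 3.58.1 (R 4.3.3) with a mean-variance trend, 2-sided, with Benjamini-Hochberg adjustment over those rows. The study's Cuffdiff analysis needs reads and was not repeated. The fit was tested on simulated data. Nothing says how the samples of a group relate beyond 1 tumor per rat, and the labels give no sequencing batch. An exact permutation test of 3 against 3 cannot go below 0.10, and none was run. Replicate numbers come from the sample titles. Deviations from the group means correlated at r = 0.43 for number 1, 0.61 for number 2 and 0.87 for number 3. All were over the 0.1 set for using the numbers as a block in an alternative fit. Across numbers r was as high, at 0.64 for A1 and B9 and 0.61 for A6 and B5. The labels do not say that equal numbers pair the rats, so the block is not a known pairing.

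The members and gene lists were chosen with earlier results of these data known. Named genes are the 9 measured members, the 10 rows closest in profile, and up to 4 genes of highest mean from each list (up to 2 from lists of other tissues). Other genes named from the lists, among them the defining prostate and thyroid genes, were named outside this rule. Not every gene the rule allows is printed. Some listed genes are not reported here. The alternatives tried were each library left out, blocking on the replicate number, no trend, repeated symbols summed and libraries scaled by median ratios or to equal sums. A pseudocount of 0.1 was also tried, as was no filter, where every row above 0 in any library was kept. Leaving out A12 and B14 together was chosen after seeing the data. Promoter windows are from RefSeq, build GRCr8. Python 3.11.15, numpy 2.4.6, pandas 2.3.3 and matplotlib 3.10.9 were used.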

Additional observations from a re-analysis of the deposited data

How the results depend on the processing

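No alternative called any of the 9 genes. Scalings, the pseudocount, no filter, no trend, the replicate block and summed rows kept the direction of all 9 and their median. Leaving out 1 library reversed it in 27 of 54 values. With each library left out in turn, the median of the 9 ran from -2.42 (without B14) to 4.19 (without A12), and the number of the 9 lower with digitoxin ran from 0 to 9. In the same fits Sftpa1 ran from -3.82 to 4.54, Sftpb from -2.57 to 4.96, Sftpc from -3.94 to 5.94, Sftpd from -2.42 to 4.19, Napsa from -0.84 to 2.05, Lamp3 from -2.97 to 2.24, Slc34a2 from -2.42 to 3.02, Nkx2-1 from -1.49 to 3.14 and Ager from -2.22 to 4.44, each lowest without B14 and highest without A12. The rows called ran from 0 to 2 (without B14), and 2 were called without A12 and B14. Of the 10749 rows, those with an unadjusted p under 0.05 in limma numbered 36 with all 6 libraries and 446 with the replicate block. They numbered 1183 without A12 and B14, and 13 to 2114 with 1 library left out. The 2114 came without A12, a library that the levels of the 9 genes set apart. With no filter, which tests more rows, they numbered 133. The unknown depth limits every entry under 1 FPKM.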

Other observations

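Each of the 14 airway genes tested was set against Sftpc of the same library over A1, A6, B5 and B9. Both A1 and A6 lay above both B5 and B9 for 6 of the 7 ciliated cell genes and 3 of the 7 secretory genes, and for 1.46% of all rows set against Sftpc in the same way. Sftpc was itself higher in A1 and A6 than in B5 and B9, which makes this pattern rarer after the division. Without the division 17.2% of all rows had it. Scgb1a1, the club cell secretory protein, was at 54124 FPKM in A1, 129228 in A6, 20630 in B5 and 22674 in B9, with 2.31 in A12 and 1.51 in B14. Per Sftpc this was 153% in A1, 203% in A6, 108% in B5 and 94.1% in B9. Tppp3, the most abundant of the ciliated cell genes, was at 1.37%, 1.57%, 0.981% and 1.00% of Sftpc in the same order, and Dynlrb2, a dynein light chain of motile cilia, at 0.251%, 0.319%, 0.105% and 0.0621%. The exceptions were Ccdc39, Bpifb1 and Reg3g, which were highest in B5, and Scgb3a1 and Bpifa1, which were highest in A1 but not higher in A6 than in both vehicle tumors. Bpifb1 stood at 0.0904%, 0.0225%, 0.110% and 0.0613%. The highest ratio was 1.60 times the lowest for Tppp3, 2.16 times for Scgb1a1, 5.14 times for Dynlrb2, 14.2 times for Cyp2f4, 27.0 times for Scgb3a1 and 338 times for Reg3g, and Bpifa1 gave none because of its zeros. The Reg3g spread rests on low values, with 0.611 FPKM in A6 and 0.315 FPKM in B9. The spread was above the 1.79 times of Sftpb for 12 of the 14 airway genes. In the alveolar set it was also above this for Sftpa1 (2.27), Slc34a2 (4.42) and Lamp3 (5.77), and lowest for Sftpd (1.31). This comparison was chosen after values were seen, and the difference between groups was not tested.

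Cldn18 varied against Sftpc as Lamp3 and Slc34a2 did, at 0.747% in A1, 0.339% in A6, 0.853% in B5 and 1.46% in B9, a spread of 4.31 times with A6 lowest and B9 highest. Aqp5 against Ager, a pair of type 1 cell genes, was at 27.2%, 19.9%, 23.8% and 23.1%, a spread of 1.37 times. Lgi3, which lies 6096 bases from Sftpc on chromosome 15, varied against it by 1.71 times.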
